A study of Ovis aries with 16 samples.

Results

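The last 2 Mb of each of the 26 sheep autosomes held 14496 methylated regions, out of 493190 on the autosomes and 512238 in the whole genome. A region here is a stretch in which peaks of different fetuses overlapped by at least 1 bp and in which at least 2 of the 16 fetuses had a peak. A region was counted at the chromosome end when its start lay within 2 Mb of the end of the last peak on that chromosome, which served as the chromosome's length. The ends were compared with the remaining 478694 autosomal regions and with the 9978 regions of the first 2 Mb of the same chromosomes. Peaks came from methyl-binding domain (MBD) sequencing, in which fragments of genomic DNA carrying methylated CpG sites are captured by a protein domain and sequenced. The DNA was from longissimus dorsi (LD), the long muscle of the back, of 8 fetuses of hay-fed ewes and 8 fetuses of corn-fed ewes. Ewes were Polypay sheep fed a haylage diet or a corn diet of similar metabolizable energy, from the middle of pregnancy until fetuses were collected late in gestation, and the corn ration also held some haylage and a supplement. Most fetuses were littermates. The paper lists every hay fetus, and most corn fetuses, with a twin from the same dam, so fewer dams than fetuses stand behind each diet. The diet was given to the dams. The labels do not tie dam, sex or sequencing lane to a sample, and every p-value below treats the 16 fetuses as independent.

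Chromosome ends differ from chromosome interiors in many mammals. DNA next to the telomere repeats is often rich in G, C and CpG sites, holds many genes and short repeats, and takes part in frequent meiotic crossing over. Most CpG sites of mammalian somatic DNA are methylated, apart from those in CpG islands at promoters. MBD capture responds to the number of methylated CpG sites on a fragment, so a peak reflects CpG density and methylation together, and the peak lists cannot separate them. No genome of the build used for alignment (Oar_v3.1) was used here, so neither the bases nor the genes of these regions are described.

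Fetuses had between 261331 and 519923 peaks. Read counts and peak heights are not in the values used here, so the depth of each library is unknown, and the absence of a peak may reflect depth as well as methylation. The last peak of a fetus lay within 10 kb of the chromosome end in 320 of 416 combinations of fetus and chromosome, and the largest distance was 102432 bp. The median distance was 4325 bp.

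Chromosome ends carried more methylated regions than the rest of the autosomes, and those regions were wider, had stronger peaks and were shared by more fetuses. Consensus regions numbered 278.8 per Mb at the ends, 199.5 per Mb in the rest and 191.9 per Mb in the first 2 Mb. The ends made up 2.12% of the autosomal length and held 2.94% of the autosomal regions. Counted within each fetus, regions with a peak of that fetus numbered 220.2 ± 12.3 per Mb (SD, n = 16) at the ends and 107.4 ± 19.9 per Mb in the rest. The ratio of these densities ranged from 1.70 to 2.85, and its log2 averaged 1.06 ± 0.21 (SD, n = 16). It was above 0 in 16 of 16 fetuses (exact two-sided sign-flip test, p = 3.052e-05, the smallest p this test can give when 16 fetuses are taken as independent). Against the first 2 Mb the log2 ratio was 0.90 ± 0.09 (SD, n = 16), again above 0 in 16 of 16 fetuses (exact sign-flip test, p = 3.052e-05).

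The difference was larger in bases than in numbers of regions. Consensus regions covered 66.2% of the bases of the ends, 17.8% of the rest and 27.1% of the first 2 Mb. A fetus's own peaks covered 46.7% ± 4.6 of the ends (SD, n = 16), with 37.0% as the lowest, 47.3% as the median and 54.0% as the highest fetus. In the rest the same fetuses had 7.94% ± 1.35 of bases under peaks, with a highest value of 10.3%. The lowest fetus at the ends therefore stood above the highest fetus in the rest, and the log2 ratio of covered share was 2.57 ± 0.18 (SD, n = 16, exact sign-flip test, p = 3.052e-05). The covered share was added as a measure after the widths had been seen.

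**Figure D1:**
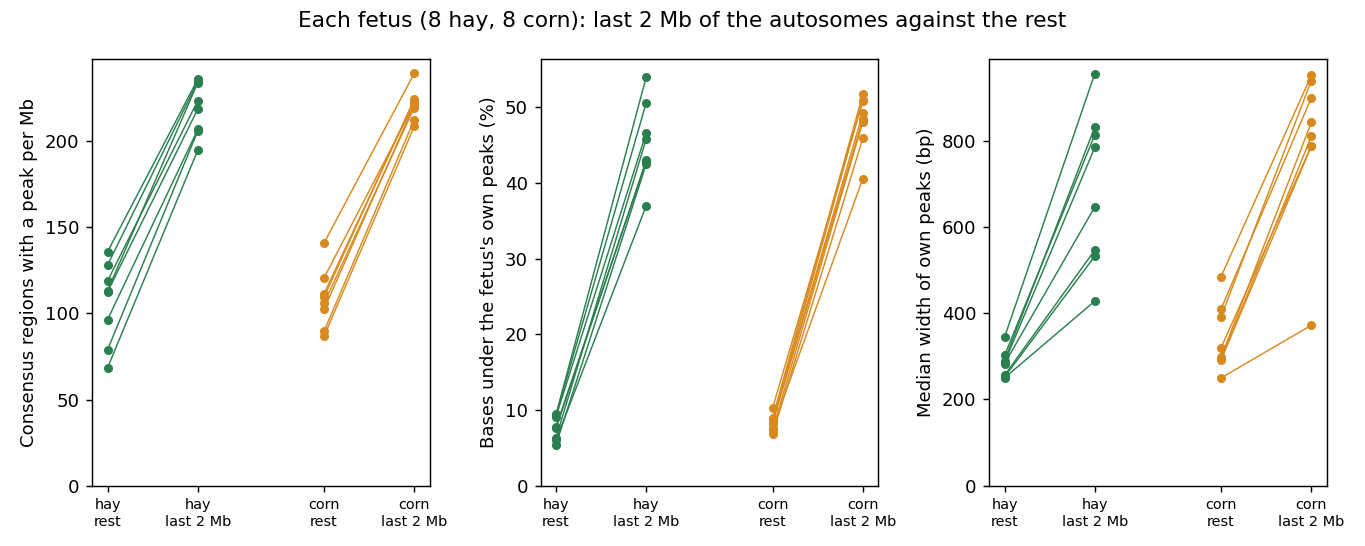
Values of each of the 16 fetuses in the rest of the autosomes and in the last 2 Mb, joined by a line, with hay fetuses in green and corn fetuses in orange. From left to right the axes show consensus regions with a peak per Mb, the percentage of bases under the fetus's own peaks, and the median width of its own peaks in bp. Every line rises toward the last 2 Mb.

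Methylation coverage fell with distance from the chromosome end. Consensus regions covered 66.2% of bases from 0 to 2 Mb from the end, 55.5% from 2 to 4 Mb, 41.2% from 4 to 6 Mb, 28.0% from 8 to 10 Mb and 14.8% from 18 to 20 Mb. The 2 Mb limit is not an edge in this profile, since bins of 0.25 Mb just inside and just outside it were covered to 64.7% and 61.0%. The number of regions followed another course. It was 278.8 per Mb in the last 2 Mb and rose to 321.7 per Mb from 2 to 4 Mb, where the median region was 1094.5 bp wide against 1414 bp at the end. It was still above that of the last 2 Mb from 4 to 6 Mb (313.5 per Mb) and from 6 to 8 Mb (289.7 per Mb). From 8 to 10 Mb it was 273.9 per Mb and from 18 to 20 Mb 191.3 per Mb. The outermost 0.25 Mb was covered to 59.2%, below the 66.2% to 68.7% of the next 6 bins. In that outermost bin 50.1% of regions had a peak in all 16 fetuses, and from 0.5 to 0.75 Mb the share was 60.2%.

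**Figure D2:**
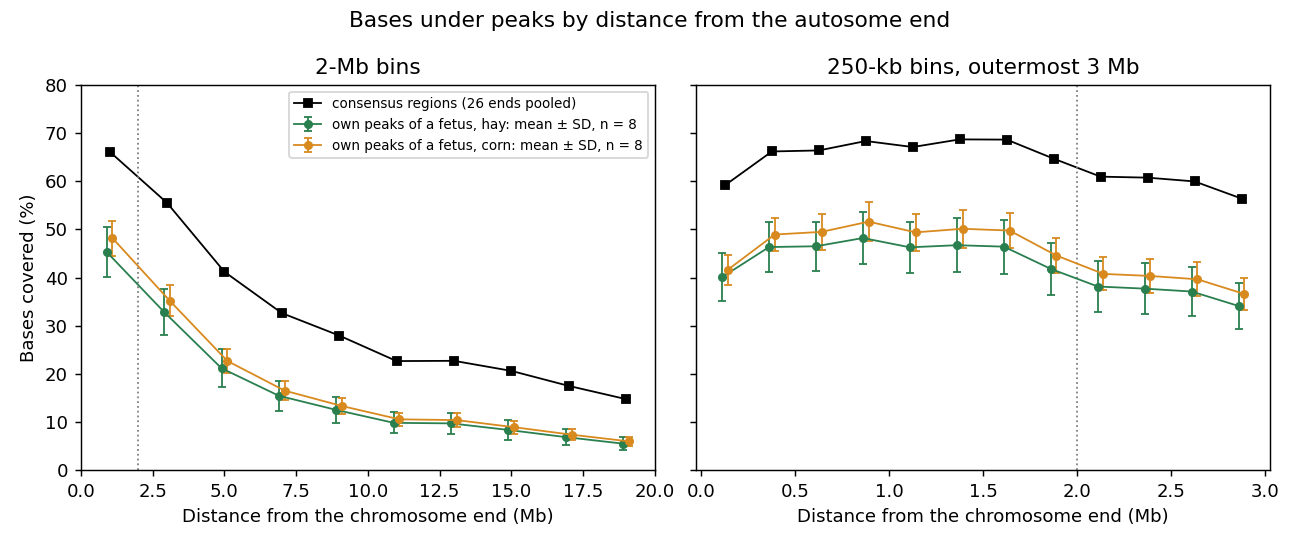
Percentage of bases covered against distance from the chromosome end in Mb, over 26 autosomes, in 2-Mb bins to 20 Mb (left) and 0.25-Mb bins to 3 Mb (right). Black squares are consensus regions of all fetuses, coloured circles are the mean ± SD over 8 hay or 8 corn fetuses of the bases under a fetus's own peaks, and the dotted line marks 2 Mb. Coverage by consensus regions falls from 66.2% in the last 2 Mb to 14.8% at 18 to 20 Mb, and hay and corn error bars overlap in every bin.

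When the autosomes were divided into 1216 windows of 2 Mb counted back from each end, the 26 end windows were among the most covered. In the ranking by covered share, 15 of the 26 ends stood in the top 26 and 24 in the top 100, with a median rank of 20. The other windows had a median coverage of 14.1%. In 22 of 26 chromosomes the end window was more covered than its neighbour. The most covered of these windows that was not an end was on chromosome 6, the 2nd window from its end, at 77.9%. Only whole windows were ranked, so a stretch shorter than 2 Mb at the start of each chromosome was left out. The first 2 Mb of chromosome 2, which are not a window of this ranking, were covered to 80.4%, against 80.1% at its end. Ranked by number of regions the ends did not stand out in this way, with 4 in the top 26, 8 in the top 100 and a median rank of 235.

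Regions at chromosome ends were broad. Their median width was 1414 bp (25th to 75th percentile 807 to 2885 bp), compared with 761 bp in the rest and 838 bp in the first 2 Mb. Regions of at least 5 kb made up 11.4% of the regions at the ends and 0.802% in the rest. Of the 950 autosomal regions of at least 10 kb, 373 (39.3%) were at the ends, and so were 44 of the 100 widest. Consensus regions grow wider as peaks of more fetuses are merged, so widths were also compared within each fetus. The median width of a fetus's own peaks was 745 ± 185 bp at the ends and 313 ± 66 bp in the rest (SD, n = 16). The difference was 432 ± 143 bp (SD), with the smallest at 122 bp and the largest at 611 bp (exact sign-flip test, n = 16, p = 3.052e-05).

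Width and sharing among fetuses moved together. Of the 1654 regions of at least 5 kb at the ends, 1653 had a peak in all 16 fetuses. The same held in the rest, for 3834 of 3838 regions of that width. Restricting the comparison to regions with a peak in all 16 fetuses, 7995 at the ends and 78186 in the rest, left median region widths of 2615 bp and 1590 bp. In these regions a fetus's own peaks were 255 ± 92 bp wider at the ends (SD, n = 16, exact sign-flip test, p = 3.052e-05). This restricted comparison was added after the data had been seen.

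Peaks at the ends also had higher scores, but the very highest scores were not concentrated there to the extent that wide regions were. The score of a peak is −log10 of its deposited p-value, with values of 0 set to a score of 100. The median score of a fetus's peaks was 2.14 ± 0.41 at the ends and 1.49 ± 0.10 in the rest (SD, n = 16). The difference averaged 0.650 ± 0.317 (SD) and was above 0 in 16 of 16 fetuses (exact sign-flip test, p = 3.052e-05). In regions with a peak in all 16 fetuses it was 0.435 ± 0.278 (SD, n = 16, exact sign-flip test, p = 3.052e-05). Of the 1000 autosomal regions with the highest median score over the 16 fetuses, 65 (6.5%) were at the ends.

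More fetuses shared each region at the ends. A peak in all 16 fetuses was found in 55.2% of the regions at the ends and 16.3% of those in the rest, and regions found in 2 or 3 fetuses made up 10.9% and 26.2%. A region with a peak of a given fetus had a peak of 13.6 ± 0.4 of the 15 other fetuses at the ends and of 11 ± 1.1 in the rest (SD, n = 16). The difference of 2.58 ± 0.72 fetuses (SD) was above 0 in 16 of 16 fetuses (exact sign-flip test, p = 3.052e-05). Fetuses enter each other's values here, so this test describes only how even the difference was over fetuses. How much of the sharing follows from wider peaks overlapping more often was not tested. A fetus had a peak in 79.0% ± 4.4 of the consensus regions at the ends and in 53.9% ± 9.99 of those in the rest (SD, n = 16).

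**Figure D3:**
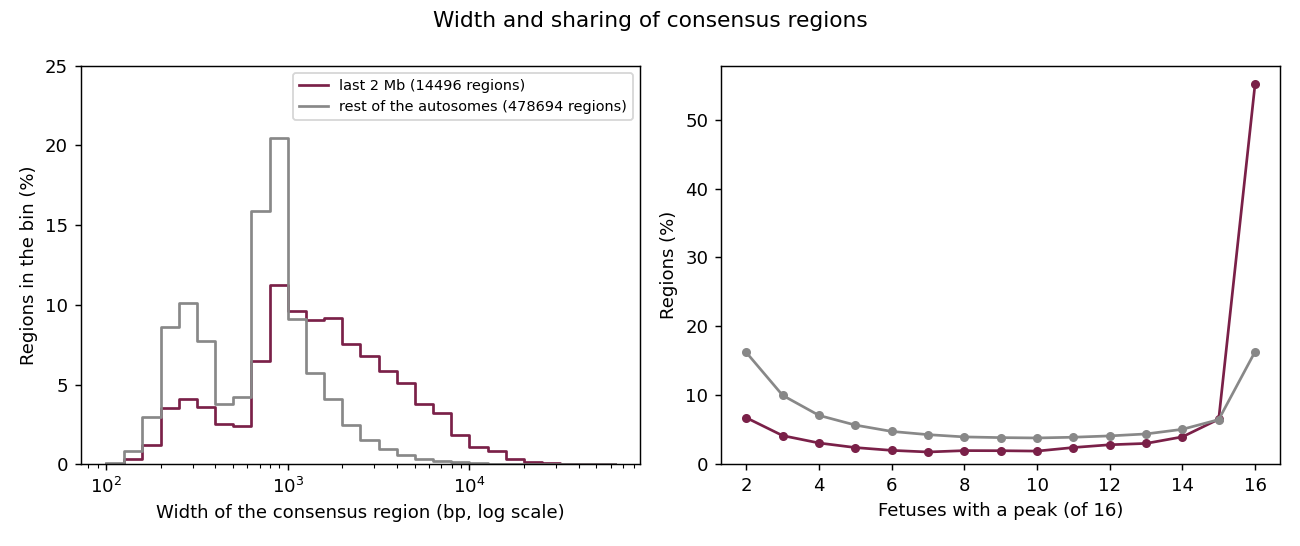
Left, percentage of consensus regions against their width in bp (log scale) for the last 2 Mb (dark red) and the rest of the autosomes (grey). Right, percentage of regions against the number of fetuses, of 16, with a peak in them. Regions at the ends extend to greater widths, and 55.2% of them against 16.3% in the rest have a peak in all 16 fetuses.

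The pattern held on every autosome, with large differences in size between chromosomes. All 26 ends had more regions per Mb, a wider median region, a higher median score and more regions shared by all 16 fetuses than the rest of their chromosome. On each of the 26, all 16 fetuses had a higher density and a larger covered share at the end than in the rest. The ratio of consensus region densities ranged from 1.01 to 1.88 with a median of 1.27. The 5 highest ratios were those of chromosomes 1 (1.88), 9 (1.87), 25 (1.83), 5 (1.71) and 13 (1.68), and the 3 lowest were those of chromosomes 10 (1.01), 19 (1.09) and 6 (1.15).

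Ends with a low density ratio tended to have a large share of bases under regions. Regions covered 81.7% of the end of chromosome 10, in which the median region was 2541.5 bp wide and 75% of the 392 regions had a peak in every fetus. The end of chromosome 19 was covered to 77.6% and that of chromosome 6 to 73.3%, which ranked 11th of the 26. At the end of chromosome 1, which held 739 regions, coverage was 56.1%, the median width 1105 bp and the share of regions found in every fetus 44.0%. Chromosomes 9 and 25 resembled chromosome 1, with coverage of 54.6% and 54.0%. Over the 26 ends, Spearman's rho was −0.775 between density ratio and covered share and 0.954 between covered share and median width. These correlations describe chromosomes measured in the same 16 libraries, and wide regions leave room for fewer regions per Mb.

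Coverage was below 50% at 3 ends only. Chromosome 26 had the least covered end (31.5%, median width 851 bp, 25.3% of regions in every fetus), followed by chromosome 14 (39.0%) and chromosome 5 (48.0%). At the end of chromosome 26 the own peaks of the median fetus covered 15.6% of bases, and the range over fetuses overlapped that of the rest of the chromosome, although each fetus was higher at the end than in the rest. Chromosome length was hardly related to the density ratio over the 26 chromosomes (Spearman's rho −0.108).

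**Figure D4:**
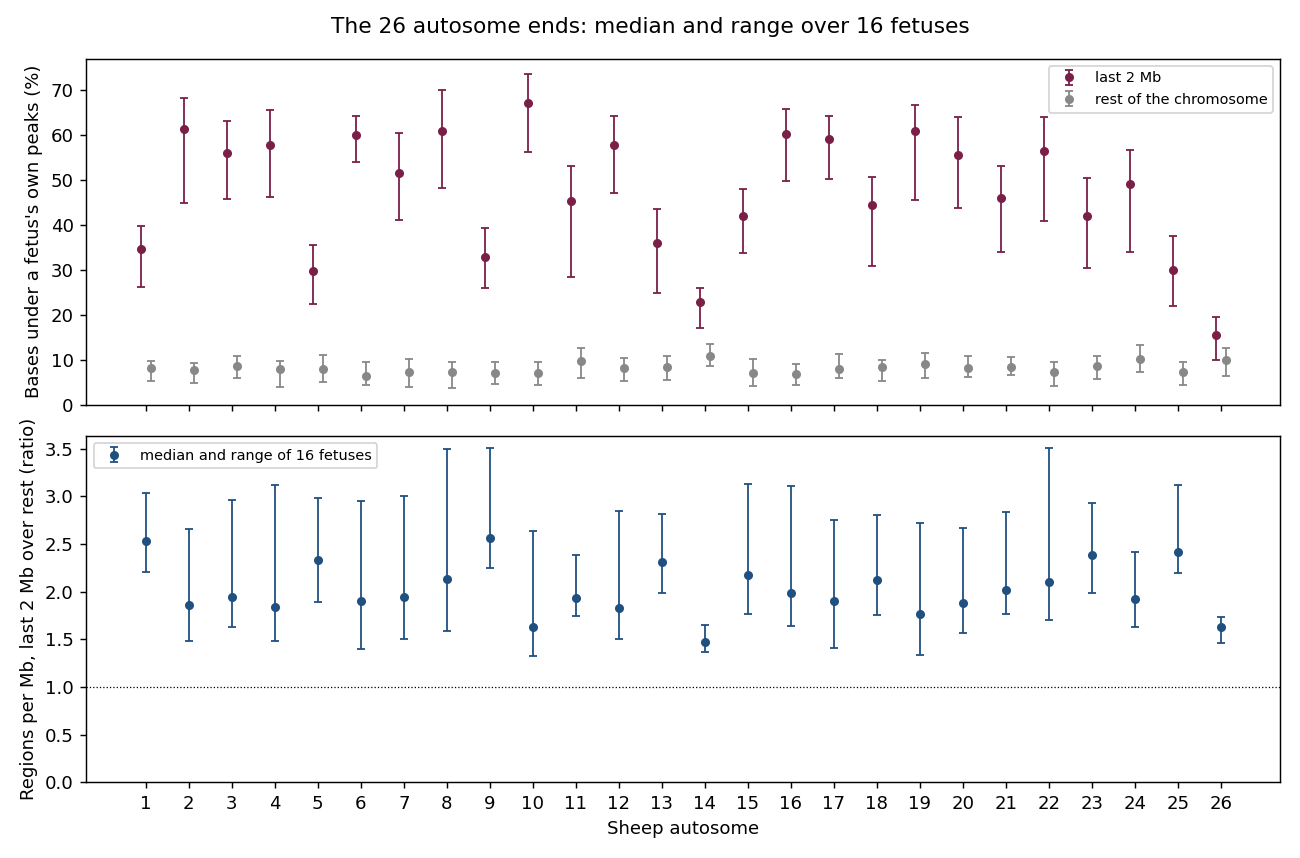
Top, percentage of bases under a fetus's own peaks in the last 2 Mb (dark red) and the rest (grey) of each sheep autosome. Bottom, ratio of regions per Mb in the last 2 Mb to the rest, with a dotted line at 1. Points are medians and bars the range over 16 fetuses. Chromosome 10 is covered most and chromosome 26 least, and every fetus is above a ratio of 1 on every chromosome.

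The first 2 Mb of a chromosome were less covered than the last 2 Mb on 22 of 26 chromosomes, all but 1, 2, 3 and 26. Sheep autosomes 1 to 3 have 2 arms, so both of their ends lie at the tip of an arm, whereas autosomes 4 to 26 have the centromere close to an end. In the first 2 Mb, consensus regions covered 74.9% to 80.4% of bases on chromosomes 1 to 3 and 5.004% to 53.4%, with a median of 15.6%, on chromosomes 4 to 26. A fetus's own peaks covered between 48.4% and 66.9% of the first 2 Mb of chromosomes 1 to 3, with a median of 61.4%. On chromosomes 4 to 26 the range over fetuses was 8.20% to 12.8%, which does not overlap the former. The last 2 Mb were alike in these sets, with medians of 51.1% on chromosomes 1 to 3 and 46.8% on chromosomes 4 to 26. The division was made after the values had been seen and rests on 3 chromosomes, and no test was made of it.

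The outermost region of each chromosome was poorly shared, unlike the ends as a whole. None of the 26 outermost regions had a peak in all 16 fetuses, and they were found in 2 to 13 fetuses. Their widths ran from 159 to 5152 bp with a median of 1446.5 bp. On chromosome 1, the chromosome with the highest density ratio, it spanned 275608931 to 275609331 (Oar_v3.1) and had a peak in 2 hay and 0 corn fetuses. On chromosome 26 it lay 53485 bp inside the last peak, since the peaks beyond it were each found in a single fetus. The outermost region of chromosome 17 had a peak in 13 fetuses and that of chromosome 24 in 12.

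The density ratio of a fetus was closely tied to how many regions it had in all. Fetuses with few autosomal regions had high ratios. Hay fetus 11, with 174184 autosomal regions, had a ratio of 2.85, and corn fetus 7, with 350541, had a ratio of 1.70. Over the 16 fetuses, Pearson's r between the log2 density ratio and the number of autosomal regions with a peak was −0.983 and Spearman's rho −0.979 (permutation test, p = 1e-05 for each, the smallest 100000 resamples can give, adjusted p = 2.4e-05 over 12 relations). Without hay fetuses 11 and 10, the farthest from the median number, r was −0.976, and within diets it was −0.982 in hay and −0.988 in corn. The number of autosomal regions is nearly the denominator of the ratio, so part of this relation follows from its construction. The number of regions at the ends varied far less, from 10119 to 12443, and rose with the total (r = 0.939, permutation test, p = 1e-05). The log2 ratio of covered shares was tied to the total in the same way (r = −0.984, permutation test, p = 1e-05).

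**Figure D5:**
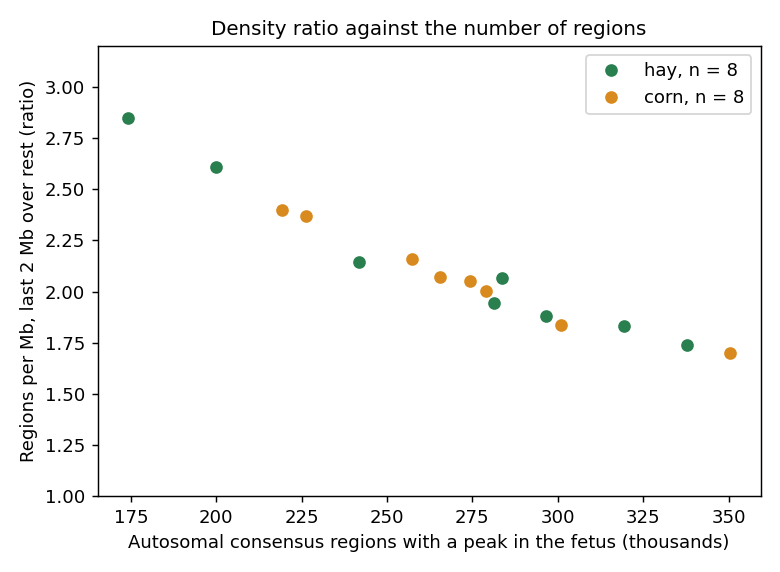
Ratio of regions per Mb in the last 2 Mb to the rest, against the number of autosomal consensus regions with a peak in the fetus in units of 1000, for 8 hay (green) and 8 corn (orange) fetuses. The ratio falls from 2.85 in the fetus with the fewest regions to 1.70 in the fetus with the most, in both diets alike.

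To ask whether the maternal diet changed the methylation of chromosome ends, the same measures were compared between hay and corn. In the main tests none of these measures gave a p under 0.05 (exact permutation test). Hay fetuses had a peak in 11394 ± 806 regions at the ends and corn fetuses in 11504 ± 476 (SD, n = 8 each, exact permutation test, p = 0.749). The log2 density ratio averaged 1.07 ± 0.25 in the hay group and 1.04 ± 0.17 in the corn group (SD, n = 8 each, exact permutation test, p = 0.789). Own peaks covered 45.3% ± 5.3 of the ends in hay fetuses and 48.2% ± 3.6 in corn fetuses (SD, n = 8 each, exact permutation test, p = 0.217). The difference in sharing between the ends and the rest was 0.0889 fetuses larger in hay (exact permutation test, p = 0.811).

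Peaks at the ends were on average somewhat narrower and weaker in the hay group, and the groups overlapped. Their median width averaged 692 bp in hay fetuses and 798 bp in corn fetuses (exact permutation test, n = 8 each, p = 0.267), and 7 of the 8 corn fetuses lay between 787 and 951 bp. Corn fetus 4 stood apart at 372 bp, and without it the difference (hay minus corn) went from −106.5 to −167 bp (exact permutation test, p = 0.0454). The median score was 1.98 in the hay group and 2.30 in the corn group (exact permutation test, p = 0.130). It passed 0.05 when corn fetus 4 (p = 0.0382) or hay fetus 5 (p = 0.0446) was left out (exact permutation test). In the rest of the autosomes hay peaks were also narrower (283 against 343 bp, exact permutation test, p = 0.0670) and scored lower (1.45 against 1.54, p = 0.0842). Taken as the ends minus the rest, neither the diet difference in width (p = 0.526) nor that in score (p = 0.149) passed 0.05 (exact permutation test).

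Region by region, 1 region at the chromosome ends differed between diets by limma over all 512238 regions at an adjusted p under 0.1 (Benjamini-Hochberg). Over the whole genome the test called 1 region higher in hay, which was this region (0.000195% of regions tested), and 2 higher in corn (0.00039%), neither at an end. At an unadjusted p under 0.05, 180 regions at the ends (1.24%) were higher in hay and 329 (2.27%) higher in corn. The shares over all regions were 1.43% and 1.73%. The split depends on scaling. The scores of each fetus were divided by a factor for its general level, and without it 64 regions at the ends (0.442%) were higher in hay and 1775 (12.2%) higher in corn. Over all regions the unscaled shares were 0.722% and 4.95%. The median difference (hay minus corn, log2 of score + 1) over the 14496 regions was then −0.16, against −0.01 with scaling, and over all regions it was −0.05 and 0.02.

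The called region spans 9756 bp on chromosome 3 from 223385700 to 223395455 (Oar_v3.1), 896 kb from the chromosome end, and all 16 fetuses had a peak in it. The scores of the hay fetuses were 2.49 at the lowest, 6.15 at the median and 15.9 at the highest. The corn fetuses scored 1.90, 3.91 and 5.10. Groups overlapped, and 5 of the 8 hay fetuses were above the highest corn fetus. The scaled difference was 0.76 on the log2 scale (SE 0.14, limma, adjusted p = 0.0508). On that scale the SD was 0.65 in hay and 0.22 in corn (n = 8 each). The SE is smaller than these SDs alone would give, because limma draws the variance of a region toward that of other regions. The call therefore rests in part on the spread of other regions. Although hay scores were higher, own peaks in hay were narrower there, with a median of 2699 bp for the widest own peak against 6937 bp in corn. The call was lost without scaling (0.58, limma, adjusted p = 0.380), when only regions present in at least 8 fetuses were tested (limma, adjusted p = 0.9999), and when hay fetus 3, 5, 10 or 12 was left out (adjusted p = 0.137 to 0.243).

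The other 4 regions with the smallest p at the ends did not pass the adjusted threshold in the main test. On chromosome 2 from 247774320 to 247776629, scores were 2.78, 3.77 and 5.78 (lowest, median and highest) in hay and 3.97, 7.70 and 8.88 in corn, a difference of −0.47 (SE 0.11, limma, adjusted p = 0.725). This region passed the threshold without scaling (limma, adjusted p = 0.0325), with a pseudocount of 5 (0.0459) and without hay fetus 11 (0.0758). On chromosome 4 from 117570197 to 117586366, hay scores ran from 14.1 to 40.7 with a median of 22.3. The corn scores there ran from 12.4 to 100 with a median of 75.4, and 4 corn and 0 hay fetuses had a deposited value of 0. The adjusted p there was 0.919 (limma), and it passed the threshold without scaling (0.00285) and without corn fetus 2 (0.0897). The log2 scaled scores had an SD of 0.63 in hay and 1.13 in corn (n = 8 each). The limma SE of 0.22 was again smaller than these SDs alone would give. With 4 corn scores at the ceiling of 100 that stands for a value of 0, the size of the difference is set in part by that ceiling and is not given. The region on chromosome 15 from 80633993 to 80634828 had a peak in 8 hay and 5 corn fetuses, with a difference of 0.89 (limma, adjusted p = 0.919). Groups overlapped in all of these.

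In the outermost region of chromosome 5, from 107898329 to 107900409, peaks were found in hay fetus 5 and in corn fetuses 4, 6, 7 and 9, each with a deposited value of 0, and the other 11 fetuses had no peak. Scores there were therefore either 0 or the ceiling of 100, so the size of a score difference is set by the ceiling and is not given. On presence of a peak alone, which the ceiling does not touch, 1 of 8 hay and 4 of 8 corn fetuses gave an adjusted p of 0.770 (limma). On scores the adjusted p was 0.742 in the main test (limma). It passed the threshold without scaling, without hay fetus 5 and without corn fetus 1, 2, 13 or 14 (limma, 0.000300 to 0.0686). All of these rest on the same ceiling. They also rest on limma's SE, 0.57 in the main test, which is smaller than the SDs of 2.23 in hay and 3.52 in corn (n = 8 each) alone would give. With a pseudocount of 5 the adjusted p was 0.410 (limma).

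Peaks present in one diet and absent in the other were rare at the ends. No region at the ends had a peak in all 8 fetuses of a diet and in 0 of the other (0% of all regions for hay and 0.000586% for corn). A peak in at least 7 hay and at most 1 corn fetuses was found at 1 region, and the reverse at 1 region, where the shares over all regions were 0.00351% and 0.0332%. Equal numbers of hay and corn fetuses had a peak in 9527 regions (65.7%), compared with 38.4% of all regions. More hay than corn fetuses had a peak in 2212 (15.3%, against 28.9% of all regions), and more corn than hay in 2757 (19%, against 32.6%). Most regions at the ends were found in every fetus, which makes numbers equal.

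In whole windows, none of the 26 end windows differed between diets by limma on their share of a fetus's regions. Of all 1216 windows 0 passed the adjusted threshold in either direction (0%), and at an unadjusted p under 0.05 there were 2 higher in hay (0.164%) and 21 higher in corn (1.73%), with 0 of the 26 ends among them. The smallest p at an end was 0.333, on chromosome 5 (difference 0.06 on the log2 scale, SE 0.07), where hay fetuses had a peak in 372 to 557 regions and corn fetuses in 403 to 554. Next were chromosome 15 (0.04, limma, unadjusted p = 0.564) and chromosome 23 (0.05, limma, unadjusted p = 0.598). Each had an adjusted p of 0.997.

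Among single regions, 8 at the ends had a median score of 100, and 4 had a deposited value of 0 in all 16 fetuses, out of 47 such regions on the autosomes. The first 5 by chromosome and position were on chromosome 5 from 107876052 to 107879332 and from 107895246 to 107898083, on chromosome 14 from 60832173 to 60835827, on chromosome 19 from 58981455 to 58999936 and on chromosome 20 from 49974158 to 49974754. Both regions on chromosome 5 lay within 24.4 kb of the end. The region on chromosome 20 was 597 bp wide and that on chromosome 19 was 18482 bp wide. A score of 100 is a ceiling, so these regions cannot be ranked among themselves or compared between diets.

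The 5 widest regions at the ends were patchworks of peaks in individual fetuses. The widest, 42224 bp on chromosome 20 from 50632146 to 50674369, held 11 to 37 peaks per fetus (median 20), which together covered 65.5% to 92.5% of it. The next were 39701 bp on chromosome 24 (from 41570430), 33828 bp on chromosome 10 (from 85054294), 30548 bp on chromosome 7 (from 98750256) and 30414 bp on chromosome 10 (from 85536328). In the last of these the widest own peak reached 30224 bp and its median over fetuses was 22904 bp, so that in some fetuses the region was nearly 1 continuous peak. All 16 fetuses had a peak in each of the 5. Hay and corn differed by −0.07 to 0.01 on the log2 scale in these regions (limma, adjusted p = 0.99999 for each), and both diets overlapped.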

How the data were processed

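DNA methylation was measured in 16 fetal LD samples (8 hay, 8 corn) by MBD enrichment and paired-end sequencing. Reads were trimmed with Trimmomatic v0.33, aligned to Oar_v3.1 with BWA-mem v0.7.15 and cleared of duplicates with Picard v1.107, and peaks were called for each fetus with ChIPseeqer. The authors deposited a list per fetus of chromosome, start, end and a value read here as the peak's p-value, from its range of 0 to 0.1352. No header names it.

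Peaks of all fetuses were pooled and merged where they shared at least 1 bp, ends included, and merged regions found in 2 or more fetuses were kept. The members and the rules for named regions were chosen with earlier results of these data known. Named were the chromosomes of the 5 highest and 3 lowest density ratios, the 5 regions of highest median score, the 5 widest, the 5 regions and 3 windows of smallest limma p with every call, and the outermost region of the chromosome of highest ratio. Ends and rest were compared within fetuses with the exact sign-flip test, diets by exact permutation of the diet labels (8 against 8), both two-sided. For regions, the highest score of each fetus was divided by its median ratio over regions with a peak in every fetus, taken as log2(score + 1) with 0 for no peak, and tested with limma 3.58.1 (R 4.3.3, eBayes with trend). Windows were tested on log2 of (regions with a peak + 1) per 10000 autosomal regions. P-values were adjusted by Benjamini-Hochberg with a threshold of 0.1, the threshold of 0.05 serving elsewhere. Other steps ran in Python 3.11.15 with pandas 2.3.3, scipy 1.17.1, numba 0.67.0 and numpy 2.4.6. The steps were tested on simulated data. For limma these were normal values with a common SD, without the absent peaks and the ceiling of the real scores. How limma behaves on regions with those was not tested. Depth per sample is not given in the files, so no counting interval was computed. Alternatives covered the window, the fetuses required, a score filter, the overlap, scaling, the pseudocount and each fetus left out. Bisulfite and expression data were not analysed here.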

Additional observations from a re-analysis of the deposited data

Results flagged for a closer look

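Values of the 8 fetuses of a diet were checked for a fetus lying far from the other 7, in 54 groups of 8 values, and 5 were found. The rule flags about 1 in 20 groups of normally spread values. Many groups here repeat the same fetuses in related measures or hold scores at the ceiling, so no number expected by chance can be given. Corn fetus 4 had the narrowest peaks at the chromosome ends, with a median width of 372 bp, and the smallest difference from the rest of the autosomes, 122 bp. In the region on chromosome 5 from 107876052, corn fetus 2 had a log2 scaled score of 5.12, below the other corn fetuses. In the neighbouring region from 107895246, hay fetus 11 was lowest among hay fetuses at 5.50. In the outermost region of chromosome 5, from 107898329, hay fetus 5 was the only hay fetus with a peak, at 6.32, and the other 7 were at 0. In these 3 regions of chromosome 5 most of the peaks were at the ceiling score of 100 set for deposited values of 0, so the distance of these fetuses from the others depends on that ceiling.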

How the results depend on the processing

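The differences between chromosome ends and the rest in density, width, score, sharing and covered share, and in density from the first 2 Mb, kept their direction and their side of the threshold under every alternative run: windows of 1 and 5 Mb, a peak in at least 8 fetuses, peaks above the 25th percentile of score, overlaps of at least 50 bp, the rest without the first 2 Mb, the median over chromosomes, and each fetus left out. All 16 fetuses were above 0 in each of these measures. Leaving out a fetus therefore gave the same p each time (exact sign-flip test, p = 6.1e-05), and those runs could hardly have crossed the threshold. The log2 density ratio ranged from 1.02 to 1.29 and the log2 covered ratio, a measure added after seeing the data, from 2.38 to 2.68. The correlation with the number of regions ranged from −0.987 to −0.975. Diet differences (hay minus corn) that missed the threshold changed sign in places. The difference in sharing was −0.0589 with a peak required in at least 8 fetuses (leaving out a fetus, −0.0444 to 0.255). The difference in width, ends minus rest, was 5.13 bp there and 15.7 bp for peaks above the 25th percentile of score (leaving out a fetus, −93.6 to −13.7 bp). Leaving out a fetus gave −0.0333 to 0.0687 for the log2 density ratio, −235.4 to 72.0 for the number of regions at the ends, −167 to −69.0 bp for width and −0.426 to −0.237 for score. The number of regions at the ends called by limma, 1 in the main test, was 5 without scaling (0 higher in hay, 5 in corn, against 46 over all regions), 2 with a pseudocount of 5 (11 over all regions), 0 on presence of a peak (3) and 0 with a peak required in at least 8 fetuses (0). Leaving out a fetus it was 0 to 3, with 1 to 52 over all regions, where 52 came without hay fetus 11 and the ends had 2. The cause of these shifts was not tested. The count of end windows called was 0 throughout. The labels pair no hay fetus with a corn fetus, and twins could not be grouped because the labels name no dam. With no depth in the files, a region missed for lack of reads cannot be told from an unmethylated one.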

Other observations

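The X chromosome, which the comparisons above leave out, did not show the pattern of the autosomes at its last 2 Mb. It held 264 consensus regions there, or 132 per Mb, compared with 140.8 per Mb in the rest of X. They covered 8.46% of bases against 12.8% in the rest, their median width was 656.5 bp, and 10.6% of them had a peak in all 16 fetuses. A fetus's own peaks covered 1.97% to 5.0% of these 2 Mb, with a median of 2.88%. On the autosomes the lowest value of any fetus at the pooled ends was 37.0%.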
